A study of Mus musculus with 31 samples.

Results

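The 8 lung arrays described here are 4 from mice that breathed cigarette smoke for 8 weeks and 4 from mice that breathed room air for as long, out of 31 arrays in all. They were taken by their sample titles, and every mouse miRNA on the array was kept: 611 of 650, the other 39 being viral. The 31 arrays form 8 groups, smoke and room air at 4, 6, 8 and 12 weeks, of 4 arrays each except 3 for smoke at 12 weeks. All mice were female BALB/c, an inbred strain. The sources used here give neither age nor cigarette dose, and do not say whether an array holds the RNA of 1 mouse or several. Every p-value below therefore measures only how far these samples differ from each other, which may be technical. Total lung RNA carried a Cy3 label and was read on Agilent 1-colour arrays for mouse miRNAs. In whole lung RNA, fewer cells of a type and less of a miRNA per cell cannot be told apart.

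MicroRNAs are short RNAs that guide Argonaute proteins to messenger RNAs and lower their output. The target is chosen mostly by the seed, bases 2 to 8 of the mature strand, so miRNAs with the same seed form families. In inflamed lung, some miRNAs are made on demand by NF-kB or interleukin signalling, among them those of the miR-146 family, while others mark cell types, such as miR-200 for epithelium, miR-126 for endothelium and miR-223 for myeloid cells.

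The miRNAs with the largest rises and falls that have an entry in the RefSeq tables (GRCm38.p6) are shown first, because several of the falls come in pairs with a common seed. The seed is in capitals and each strand reads 5′ to 3′. The 7 rises with an entry are these.
miR-21-5p: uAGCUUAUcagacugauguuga
miR-135a-1-3p: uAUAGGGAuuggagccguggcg
miR-146b-5p: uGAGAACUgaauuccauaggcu
miR-132-3p: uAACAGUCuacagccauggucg
miR-1892: aUUUGGGGacgggagggaggau
miR-139-3p: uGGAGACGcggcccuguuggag
miR-1895: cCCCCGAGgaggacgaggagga
The 8 largest falls with an entry follow, among which miR-99a-5p and miR-100-5p have the seed ACCCGUA in common.
miR-669n: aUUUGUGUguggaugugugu
miR-335-5p: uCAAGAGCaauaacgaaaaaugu
miR-186-3p: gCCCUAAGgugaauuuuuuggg
miR-204-5p: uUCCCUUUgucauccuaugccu
miR-100-5p: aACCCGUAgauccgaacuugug
miR-181c-5p: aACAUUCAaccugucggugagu
miR-99a-5p: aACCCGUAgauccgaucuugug
miR-497-5p: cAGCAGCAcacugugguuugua
RefSeq lists miR-21-5p and miR-497-5p under the precursors Mir21a and Mir497, as miR-21a-5p and miR-497a-5p. Of 270 tested mouse miRNAs 221 have an entry. miR-135b-5p, miR-689_v15.0, miR-1897-5p, miR-30b-3p, miR-466b-3p, miR-467d-3p, miR-669a_v15.0 and miR-669f-3p are named only.

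Each array was scaled to its 75th percentile signal, so values are log2 signals relative to that percentile, and signals under a floor of -6.74 were set to it. Before scaling the smoke arrays were dimmer: the 75th percentile was 1229 to 1681 scanner units on the 4 smoke arrays and 2337 to 3472 on the 4 control arrays. They also had fewer miRNAs above background, 223 to 244 against 250 to 288. Of the 611 mouse miRNAs, 213 were detected on all 8 arrays, 79 on some and 319 on none, and 270 passed the filter for testing, which asks for detection on 75% of the arrays of any of the 8 groups. Smoke and control number 1 to 4 lie on slides 1 to 4, smoke always in the first line of positions and control in the second, so array position cannot be told apart from smoke. Lung markers were on all 8 arrays: miR-200c-3p of epithelium at 0.29 to 0.94, miR-126-3p of endothelium at 4.61 to 4.93 and miR-143-3p of smooth muscle at 0.79 to 1.07 log2. The brain miRNAs miR-124-3p and miR-9-5p and the muscle miRNAs miR-208a-3p and miR-499-5p lay at the floor on all 8. Other striated muscle miRNAs were detected on all 8: miR-1a-3p at -0.06 to 2.35, miR-133a-3p at -3.05 to -0.62 and miR-133b-3p at -2.23 to 0.27 log2.

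**Figure D1:**
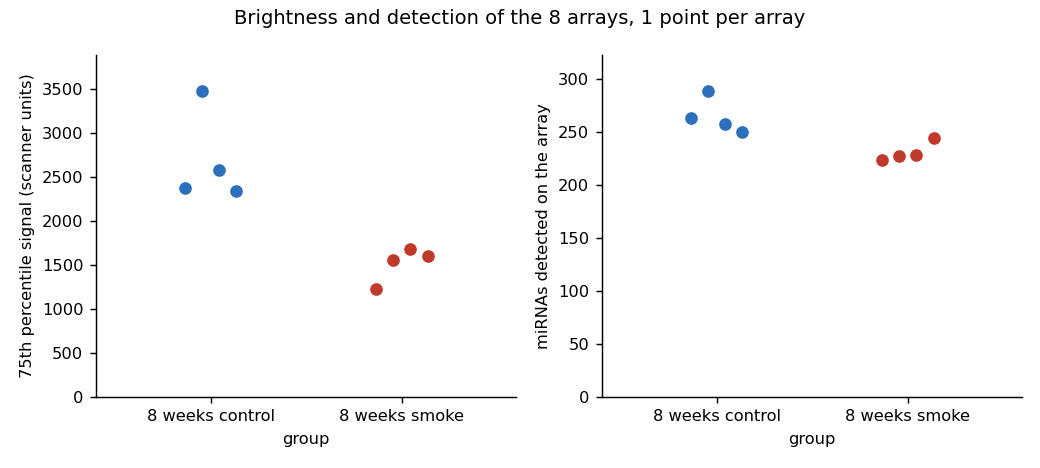
The 75th percentile signal in scanner units (left) and the number of miRNAs detected (right), 1 point per array, for the 4 control and 4 smoke arrays of 8 weeks. Both measures are lower on every smoke array (at most 1681 units and 244 miRNAs) than on any control array (at least 2337 units and 250 miRNAs).

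Smoke arrays also varied more among themselves. The median over 270 mouse miRNAs of the standard deviation within a group was 0.244 log2 for smoke and 0.062 for control, and the smoke SD was the larger for 245 of them. The myeloid miRNA miR-223-3p lay at 1.46, 0.53, 0.38 and 2.49 log2 on smoke arrays 1 to 4 and at 0.72 to 0.85 on the controls. Smoke arrays 1 and 4 were above every control for it and smoke arrays 2 and 3 below. miR-144-3p of red cell precursors lay at -1.45, 1.04, 0.57 and -0.65 log2 on the smoke arrays and at -0.65 to -0.32 on the controls. There smoke arrays 2 and 3 were above every control and smoke array 1 was below. Smoke array 3 stood apart in striated muscle miRNAs: miR-133a-3p lay at -0.62 there and at -3.05 to -2.05 on the other smoke arrays, and miR-206-3p of skeletal muscle lay at -2.24 there and at the floor on the other 7 arrays.

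After 8 weeks of smoke 30 miRNAs had changed, 10 higher and 20 lower, all of mouse. They are 11.0% of the 273 tested (3 of them viral), 3.66% higher and 7.33% lower, at a limma adjusted p of 0.05 or less, and the median difference over all 273 was -0.05 log2. Among mouse miRNAs 65 had an unadjusted p under 0.05. The rises with the lowest p were miR-135b-5p, miR-21-5p and miR-146b-5p, miRNAs of the inflammatory response. The falls were between 0.18 and 0.78 on the log2 scale, and several came from seed families of which other members did not pass. In every one of the 30 the 4 smoke arrays lay all on one side of the 4 controls, which by itself gives the same sign on all 4 slides. Both follow in large part from the call: of all 273, the groups of 46 did not overlap (16.8%) and 75 had one sign on all slides (27.5%). With slide as a block in the fit of all 31 arrays 28 passed, and miR-204-5p (adjusted p 0.067) and miR-27b-3p (0.057) did not. With that block and only the 8 arrays, 3 passed: miR-135b-5p (0.011), miR-21-5p (0.019) and miR-135a-1-3p (0.040). No fall passed that fit, nor did miR-146b-5p (0.063) or miR-132-3p (0.14). With only the 8 arrays and no block, 17 of the 30 passed. The 13 that did not are miR-689_v15.0, miR-139-3p and miR-1897-5p among the rises and miR-99a-5p, miR-100-5p, miR-195-5p, miR-181d-5p, miR-148a-3p, miR-27b-3p, miR-467d-3p, miR-669a_v15.0, miR-542-5p and miR-582-5p_v17.0 among the falls. After a normexp background correction only miR-135b-5p, miR-21-5p and miR-146b-5p passed. With array brightness as a covariate, an alternative added after seeing the data, 121 passed (22 higher, 99 lower), and scaling by the 75th percentile of all probes gave 20 higher and 23 lower. Under that scaling 23 of the 30 still passed, and miR-497-5p, miR-181d-5p, miR-148a-3p, miR-152-3p, miR-542-5p, miR-582-5p_v17.0 and miR-27b-3p did not.

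**Figure D2:**
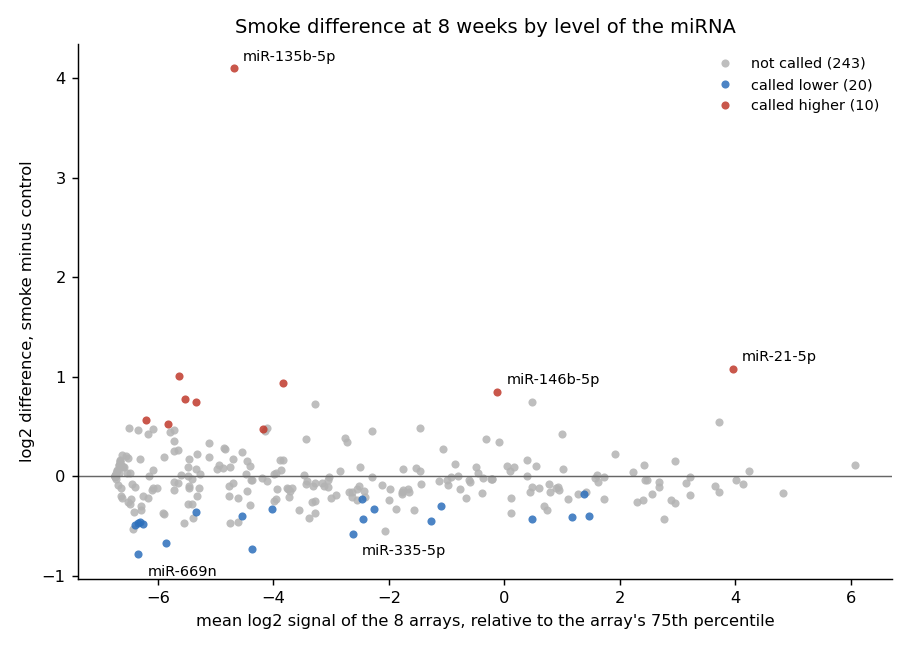
Difference between smoke and control at 8 weeks (log2, vertical) against the mean log2 signal over the 8 arrays (horizontal) for the 273 tested miRNAs, with the 10 called higher in red and the 20 called lower in blue. miR-135b-5p stands apart at 4.10, miR-21-5p at 1.08 and miR-146b-5p at 0.85, and 7 of the 10 rises and 10 of the 20 falls have a mean signal under -4.

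miR-135b-5p, which targets the interleukin-1 receptor Il1r1, lay at -2.96, -2.58, -3.03 and -1.99 log2 on smoke arrays 1 to 4 and at the floor on all 4 control arrays, of which 1 detected it. Every smoke array was above every control by more than 3 log2. The difference was 4.10 ± 0.15 log2 (n = 4 and 4, limma adjusted p 1.45e-17), with an SE from the spread pooled over all 8 groups. Since the controls have no spread, the difference is measured against the floor. That SE and p therefore do not measure the spread of these 8 arrays alone. With only the 8 arrays fitted the limma adjusted p was 0.000101. With a floor 4 times higher it was 2.10.

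miR-21-5p, which rises in tissue repair, lay at 4.44, 4.49, 4.36 and 4.73 log2 in smoke and at 3.38, 3.46, 3.42 and 3.43 in room air. The smoke arrays did not overlap the controls, and the fourth was the highest. It rose by 1.08 ± 0.09 log2 (2.12-fold, adjusted p 9.01e-10), with 0.93 to 1.31 on the single slides. Its precursor lies at chr11:86584067-86584158 on the minus strand, within the span of Vmp1.

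miR-146b-5p, which damps Toll-like receptor signalling through Traf6 and Irak1, lay at 0.27, 0.25, 0.15 and 0.55 log2 in smoke and at -0.58, -0.47, -0.53 and -0.61 in room air. All 4 smoke arrays were above 0 and all controls below it. It rose by 0.85 ± 0.08 log2 (1.81-fold, adjusted p 2.84e-09). The other member of the seed GAGAACU, miR-146a-5p, lay at 1.01, 0.80, 0.70 and 1.73 log2 in smoke and at 0.93 to 1.01 in room air. Its smoke arrays fell on both sides of the controls, and the difference of 0.08 ± 0.15 log2 did not pass (adjusted p 0.845). Whether the difference in miR-146b-5p is larger than that in miR-146a-5p was not tested.

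miR-132-3p, made with miR-212 from 1 CREB-responsive transcript, lay at -4.77, -5.47, -5.40 and -4.94 log2 in smoke and between -5.98 and -5.88 in room air. It rose by 0.78 ± 0.17 log2 (1.72-fold, adjusted p 0.00297). miR-212-3p, with the same seed AACAGUC and its precursor within 10 kb, lay between -6.07 and -4.93 in smoke and between -5.61 and -5.25 in room air, so the groups overlapped. Its difference was -0.02 ± 0.24 log2 (0.997).

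The remaining 6 rises had signals under -2 log2 on every array. miR-135a-1-3p, the 3′ arm of a miR-135a precursor, lay at -5.38 to -4.90 log2 in smoke and -6.22 to -6.02 in room air and rose by 1.01 ± 0.17 (adjusted p 0.000229). That is its brightest probe. The rise was 0.50 log2 with the mean of all its probes and 0.46 in the deposited series table. With a floor 4 times higher no difference in miR-135a-1-3p was left. miR-689_v15.0 rose by 0.94 ± 0.26 log2, miR-1892 by 0.75 ± 0.19, miR-1897-5p by 0.53 ± 0.15 and miR-1895 by 0.48 ± 0.11. Of these, miR-689_v15.0 did not pass without control array 2 or without smoke array 4 (adjusted p up to 0.064), nor did miR-1897-5p (up to 0.066). miR-139-3p, from a precursor at chr7:101475376-101475443 within the span of Pde2a, rose by 0.57 ± 0.14 log2, while the other arm, miR-139-5p, was at 0.38 ± 0.22 (0.321). For miR-139-3p the rise was 0.28 log2 with the mean of all its probes and 0.31 in the series table, and none was left with the higher floor. Without scaling between arrays, miR-132-3p and these 6 lay between -0.34 and 0.19 log2, where the median of all miRNAs was at -0.86. With the normexp correction the same 7 lay between 0.55 and 0.88 log2 with no adjusted p under 0.788. Over the 7 rises with a RefSeq sequence the median GC content was 59.1%, against 45.5% for 15 falls and for the 221 tested miRNAs with a sequence. Those with a sequence are not the 7 dim rises. They include miR-21-5p (36.4%) and miR-146b-5p (40.9%) and leave out miR-689_v15.0 and miR-1897-5p. With array brightness as a covariate the 7 dim rises were smaller: 0.65 log2 for miR-135a-1-3p, 0.82 for miR-689_v15.0, 0.52 for miR-132-3p, 0.37 for miR-139-3p, 0.34 for miR-1897-5p, 0.30 for miR-1892 and 0.24 for miR-1895. miR-1897-5p no longer passed (adjusted p 0.063). miR-21-5p was at 1.13 log2 and miR-146b-5p at 0.82 in that fit. The part of base composition in these rises was not tested.

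**Figure D3:**
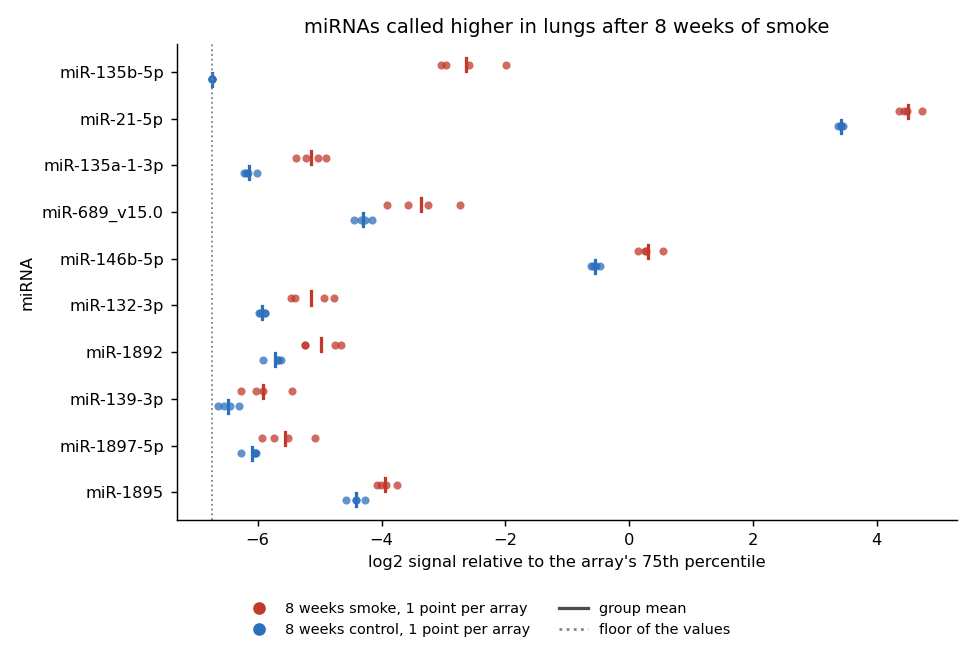
Log2 signal relative to the 75th percentile of the array (horizontal) of the 10 miRNAs called higher, 1 point per array, red for smoke and blue for control, with a bar at each group mean and a dotted line at the floor of -6.74. No smoke point overlaps the control points of its miRNA, and all 4 controls of miR-135b-5p lie on the floor.

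Among 9 tested miRNAs known to respond to inflammation 4 rose (miR-135b-5p, miR-21-5p, miR-146b-5p, miR-132-3p) and none fell, with a median of 0.46 log2. Of all 273 tested, 10 rose (3.66%). miR-155-5p of activated leukocytes lay at -3.59, -4.27, -4.47 and -3.37 log2 in smoke and at -4.44 to -4.26 in room air. Smoke arrays 1 and 4 were above all controls and smoke array 3 below, and the difference of 0.46 ± 0.21 did not pass (adjusted p 0.193). miR-31-3p was at 0.17 ± 0.06 log2 (0.0692) and miR-31-5p, the other arm, at -0.01 ± 0.09 (1.00). This list was drawn up with earlier results of these data known, so its count is no independent evidence of its direction.

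The falls include pairs with a common seed. miR-181c-5p and miR-181d-5p, which have the seed ACAUUCA and lie side by side on chromosome 8, are members of a family best known from lymphocytes. miR-181c-5p lay at -2.65, -2.79, -2.72 and -2.48 log2 in smoke and at -2.27, -2.16, -2.17 and -2.31 in room air. It fell by 0.43 on the log2 scale (SE 0.07, adjusted p 0.00012) and passed whichever of the 8 arrays was left out. miR-181d-5p lay at -4.33 to -4.02 in smoke and -3.99 to -3.80 in room air and fell by 0.32 (SE 0.08, 0.00582). The same seed in miR-181a-5p (-0.22 ± 0.12 log2, 0.298) and miR-181b-5p (-0.23 ± 0.12, 0.236) did not pass, and smoke arrays 1 and 4 overlapped the controls for both. miR-181a-1-3p, a minor arm, was at -0.46 ± 0.15 (0.0514). The list of 5 had 2 falls, a median of -0.32 log2 and no difference above 0. Of all 273 tested, 20 fell (7.33%) and 163 were under 0, which is the background for this and the later lists.

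miR-99a-5p and miR-100-5p, which repress Mtor, also fell as a pair. miR-99a-5p lay at 0.53, 0.01, 0.08 and 0.47 log2 in smoke and at 0.67 to 0.72 in room air and fell by 0.43 (SE 0.12, adjusted p 0.0216). miR-100-5p lay at -1.25, -1.73, -1.70 and -1.27 in smoke and -1.10 to -0.99 in room air and fell by 0.44 (SE 0.13, 0.0215). Smoke arrays 2 and 3 were the lowest for both, and neither miRNA passed without either of these arrays, nor without control array 2, control array 3 (miR-99a-5p) or control array 4 (miR-100-5p), with adjusted p up to 0.12. The third with this seed, miR-99b-5p, was at -0.16 ± 0.16 log2 (0.646), and miR-125b-5p, in the same list of 7, at -0.42 ± 0.16 (0.0902). In that list 2 fell, with a median of -0.16 log2.

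miR-195-5p and miR-497-5p come from 1 cluster on chromosome 11 (precursors at chr11:70235042-70235135 and chr11:70234717-70234800) and have the seed AGCAGCA of miR-15 and miR-16, which restrain cyclins of the cell cycle. miR-497-5p lay at 1.06, 0.86, 0.94 and 1.01 log2 in smoke and at 1.36, 1.43, 1.32 and 1.40 in room air. The gap between the groups was larger than the range within either. It fell by 0.41 (SE 0.07, adjusted p 0.000352) and passed without any single array. miR-195-5p lay at 1.50, 1.01, 1.18 and 1.40 in smoke and 1.62 to 1.73 in room air and fell by 0.40 (SE 0.10, 0.0079), but did not pass without smoke array 2 (0.053). With the same seed, miR-15a-5p (0.02 log2), miR-15b-5p (-0.05), miR-16-5p (-0.11) and miR-322-5p (-0.16) did not pass. In the list of 8 there were 2 falls and a median of -0.13 log2.

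miR-148a-3p and miR-152-3p, which repress Dnmt1, have the seed CAGUGCA. miR-152-3p, within the span of Copz2, lay at -2.54 to -2.27 log2 in smoke and -2.18 to -1.99 in room air and fell by 0.33 (SE 0.08, adjusted p 0.0079). miR-148a-3p lay at -1.04, -1.36, -1.45 and -1.14 in smoke and -0.99 to -0.86 in room air and fell by 0.30 (SE 0.08, 0.0105), but not past the test without smoke array 2 or 3 (up to 0.064). The third member, miR-148b-3p, was at -0.14 ± 0.08 log2 (0.29), with 2 smoke arrays above all controls and 2 below.

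miR-335-5p, from a precursor at chr6:30741299-30741396 within the imprinted gene Mest, lay at -2.88, -3.02, -3.09 and -2.63 log2 in smoke and at -2.31, -2.23, -2.30 and -2.49 in room air. Smoke array 4 and control array 4 came closest, 0.15 apart. It fell by 0.57 (SE 0.11, adjusted p 0.000616) and passed without any single array, and its other arm miR-335-3p was at -0.37 ± 0.17 (0.193). miR-204-5p, within the span of Trpm3, fell by 0.47 (SE 0.15, 0.043) near the floor, was detected on 2 of 4 smoke arrays and passed the leave-one-out fits only without smoke array 4 (adjusted p up to 0.15 in the others). miR-186-3p fell by 0.48 (SE 0.13, 0.0101) and was detected on 2 of 4 smoke arrays, with miR-186-5p, the other arm, at -0.19 ± 0.07 (0.0957). Without smoke array 3 miR-186-3p did not pass (0.062).

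Of the smaller falls, miR-27b-3p, from the cluster of miR-23b and miR-24-1, fell by 0.18 (SE 0.06, adjusted p 0.0408), and was 1.22 to 1.39 log2 in smoke against 1.40 to 1.54 in room air. It did not pass without control array 2 or 3 or smoke array 1, 2 or 3 (up to 0.14). The call of miR-27b-3p was also lost with quantile scaling, the mean of all probes and the series table. It was lost as well with no detection filter and with only miRNAs detected on all arrays. miR-27a-3p, with the same seed UCACAGU, was at -0.05 ± 0.11. In the list of 7 from the miR-23, miR-24 and miR-27 clusters it was the single call, with a median of -0.18 log2 and all 7 under 0. miR-30b-3p, a minor arm, fell by 0.36 (SE 0.09, 0.0062), the single call among 10 of the miR-30 family, all of them under 0 with a median of -0.23. miR-30b-5p, its major arm, was at -0.24 ± 0.11 (0.177). For both lists the background is 163 of 273 under 0 and 11.0% called, so a single call is near that share. miR-542-5p fell by 0.40 (SE 0.12, 0.0259), with miR-542-3p at -0.29 ± 0.09 (0.0507), and none of its 6 tested neighbours within 10 kb on chromosome X passed. It did not pass without control array 2 or 4 or smoke array 2 or 3 (up to 0.12). miR-582-5p_v17.0, within the span of Pde4d, fell by 0.23 (SE 0.07, 0.0293) and did not pass without control array 2, 3 or 4 or smoke array 3 or 4 (up to 0.12). Nor did it pass with quantile scaling, the series table, no detection filter or only miRNAs detected on all arrays.

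The other 5 falls are of the miR-466, miR-467 and miR-669 names, most of which lie in a large cluster within Sfmbt2 on chromosome 2 (10370440 to 10595253). miR-669f-3p lay at -4.50, -4.80, -5.00 and -4.68 log2 in smoke and between -4.09 and -3.92 in room air, so every smoke array was below every control. It fell by 0.73 (SE 0.12, adjusted p 0.00012) and passed without any single array. Nearer the floor, miR-467d-3p fell by 0.66 (SE 0.16, 0.00573), miR-466b-3p by 0.48 (SE 0.14, 0.018) and miR-669a_v15.0 by 0.46 (SE 0.11, 0.00582). miR-669a_v15.0 and miR-466b-3p were detected on 1 of 4 smoke arrays and on all 4 controls, so their smoke means rest mostly on signals at or near the floor and the sizes are not exact, and miR-466b-3p did not pass without smoke array 2 or 3 (up to 0.063). Of 39 such names on the array 12 were tested, 5 fell and none rose, with a median of -0.44 log2, while 7.33% of all 273 fell. For 9 of the 12 only 1 of the 2 groups had them on at least 3 arrays, against 38 of 273, so most values lie near the floor. The lowest detected signal was higher on the smoke arrays (-6.65 to -6.37 log2) than on the controls (-7.80 to -7.04), so dim miRNAs are less readily detected in smoke. A miRNA seen in the controls and set to the floor in smoke can only come out lower. The count of falls in this list is therefore no independent evidence of its direction. Counting only the 8 of the 12 with every precursor within Sfmbt2, 4 fell and the median was again -0.44. miR-669n is not one of them: its precursor lies at chr3:115979902-115979955, within the span of Slc30a7. It was above background on none of the 4 smoke arrays and on all 4 controls (-5.67, -6.05, -5.79 and -6.29 log2). In the main processing it was therefore at least 1.51-fold lower in smoke (limma adjusted p 0.00151). After the normexp correction the differences of miR-669n, miR-467d-3p, miR-466b-3p and miR-669a_v15.0 turned positive and did not pass. None of these passed with a floor 4 times higher either, and miR-669f-3p did not pass with normexp.

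**Figure D4:**
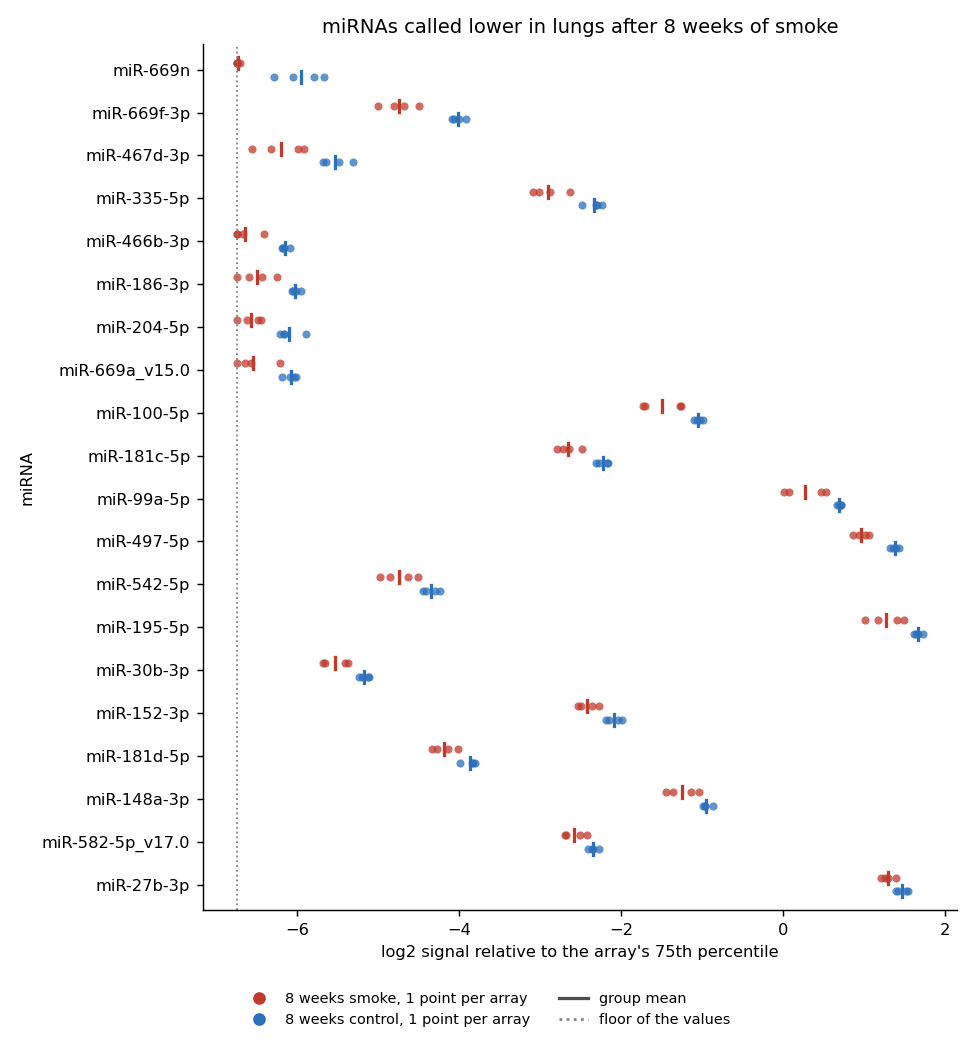
Log2 signal relative to the 75th percentile of the array (horizontal) of the 20 miRNAs called lower, 1 point per array, red for smoke and blue for control, with a bar at each group mean and a dotted line at the floor of -6.74. No smoke point lies above a control point of its miRNA, and the smoke points of miR-669n, miR-466b-3p, miR-186-3p, miR-204-5p and miR-669a_v15.0 reach the floor.

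No member passed in the lists for leukocytes (10 tested), epithelium (14), the miR-34 and miR-449 family (6), smooth muscle and mesenchyme (8), endothelium (2), striated muscle (5), liver (3), red cells (2) and hypoxia (1), nor in the miR-17-92 and miR-106b-25 clusters (13), let-7 (9), miR-29 (6) and the imprinted Dlk1-Dio3 region (8). The medians of these lists ran from -0.15 to 0.47 log2. The highest was that of striated muscle, in which 4 of 5 members had their highest value on smoke array 3: miR-1a-3p lay at 0.00, 0.48, 2.35 and 0.58 log2 in smoke and -0.06 to 0.29 in room air (0.74 ± 0.37, limma adjusted p 0.225). In the leukocyte list the median was -0.05, with miR-142-3p at -0.25 ± 0.34 log2, miR-223-3p at 0.43 ± 0.28 (0.38) and miR-150-5p of lymphocytes at -0.55 ± 0.24 (0.165). For miR-142-3p the smoke arrays lay at 1.38, 2.68, 2.44 and 2.15 and the controls at 2.36 to 2.44. In the epithelial list the median was -0.03, with miR-200b-3p at -0.18 ± 0.15, miR-200a-3p at -0.16 ± 0.13, miR-200c-3p at 0.11 ± 0.17 and miR-141-3p at 0.03 ± 0.38. miR-34a-5p, a p53 target, was higher on all 4 smoke arrays (-0.09, 0.35, 0.16 and -0.08 log2) than on any control (-0.32 to -0.17), yet its 0.34 ± 0.15 did not pass (0.165). miR-126-3p was at -0.16 ± 0.07 log2 (0.148), miR-143-3p at -0.14 ± 0.08, miR-210-3p of hypoxia at -0.15 ± 0.12, let-7a-5p at -0.03 ± 0.16 and miR-29a-3p at -0.01 ± 0.08. miR-122-5p of liver was detected on 2 smoke arrays and 1 control.

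Of the 10 rises, 9 were also above 0 at 4, at 6 and at 12 weeks, while of the 20 falls 11, 16 and 18 were below 0 there. The median smoke difference over all 273 was itself 0.17 log2 at 4 weeks, 0.01 at 6 and -0.08 at 12. How far these counts go with that general shift was not tested. These durations have controls of their own but share the estimate of spread. The smoke difference at 8 weeks was then set against the mean difference of 4, 6 and 12 weeks. It differed for 15 miRNAs, 5.49% of 273, of which 2 were more positive and 13 more negative at 8 weeks, where the median gap over all 273 was -0.13 log2. miR-146b-5p rose less: its difference was 0.85 ± 0.08 log2 at 8 weeks against 1.28, 1.41 and 1.42 at 4, 6 and 12 weeks, a gap of -0.52 ± 0.09 (adjusted p 0.0011). miR-31-5p, which was at 0.59, 0.54 and 0.52 at the other durations, was at -0.01 at 8 weeks (gap -0.56 ± 0.10, 0.0021). miR-429-3p of the miR-200 family was likewise near 0 only at 8 weeks (gap -0.34 ± 0.08, with 0.37, 0.37 and 0.32 at the other durations and 0.01 at 8 weeks). For miR-31-3p the difference was less positive at 8 weeks than the mean of the others (gap -0.32 ± 0.07). miR-335-5p was at 0.13, -0.03 and 0.07 at the other durations against its fall at 8 weeks (gap -0.63 ± 0.13, 0.0028), and miR-181c-5p (-0.31 ± 0.08) and miR-22-5p (-0.39 ± 0.10) were also lower. miR-1895 was the reverse, at -0.02, -0.14 and -0.31 at the other durations and 0.48 at 8 weeks (gap 0.64 ± 0.13). For miR-135b-5p (-0.35 ± 0.17), miR-21-5p (-0.15 ± 0.10) and miR-132-3p (-0.13 ± 0.20) the gap did not pass.

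Most of these gaps depend on the scaling. With the 75th percentile of all probes the split was 7 more positive and 2 more negative, and 3 of the 15 miRNAs passed, and with quantile scaling it was 4 and 5, with 7 of the 15. After the normexp correction none passed (limma, 11 with an unadjusted p under 0.05). Without smoke array 4 the count was 31. It was 6 without control array 2, control array 3 or smoke array 2, 7 without smoke array 3 and 9 without control array 1. miR-22-5p and miR-181c-5p did not pass without control array 2 or 3 or smoke array 2 or 3 (adjusted p up to 0.10), while the other 6 described above passed without any single array of 8 weeks. With the scaling by all probes, however, 5 of those 6 did not pass: miR-146b-5p (adjusted p 0.086), miR-31-5p (0.059), miR-335-5p (0.086), miR-429-3p (0.29) and miR-31-3p (0.34). miR-1895 passed under it, and turned to -0.26 with no scaling.

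**Figure D5:**
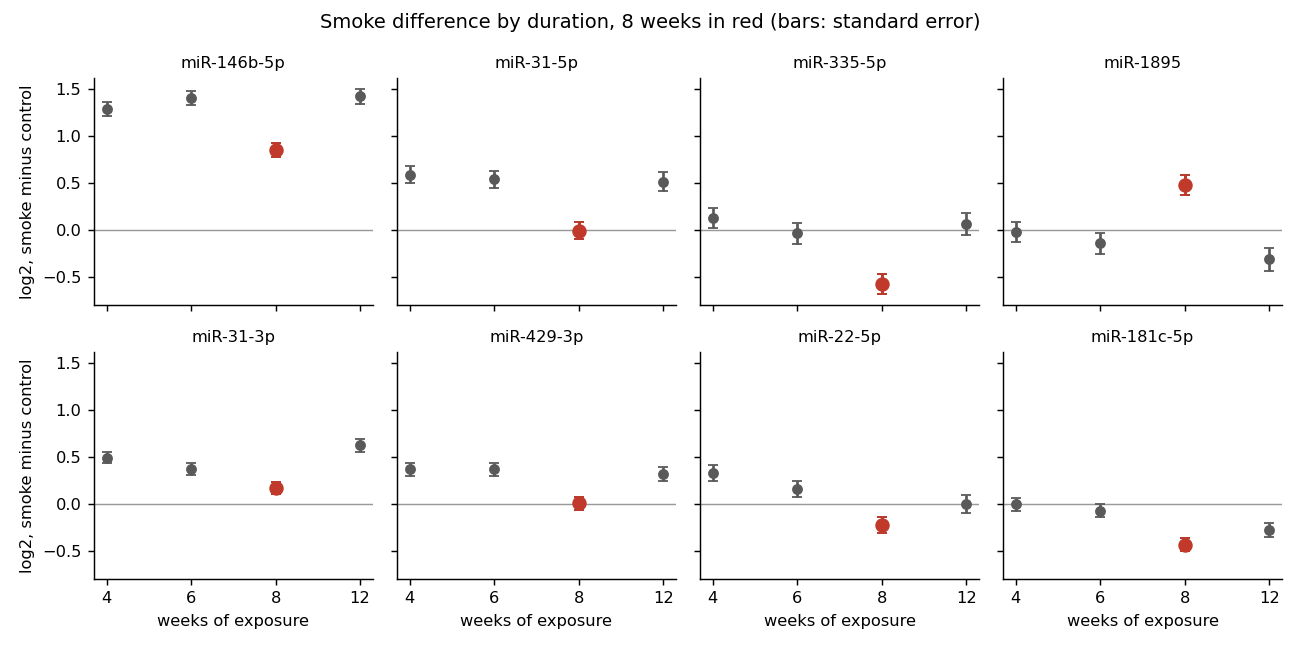
Smoke minus control difference (log2, vertical) at 4, 6, 8 and 12 weeks (horizontal, evenly spaced) for the 8 miRNAs with the lowest p for a departure of the 8 weeks difference from the mean of the other durations, with 8 weeks in red and bars of 1 standard error of the limma fit. miR-146b-5p is lowest at 8 weeks (0.85 against 1.28 to 1.42), miR-31-5p and miR-429-3p are near 0 at 8 weeks, and miR-1895 is highest there.

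Against 4 weeks alone, a comparison added after seeing the data, 40 miRNAs differed (14.7%, 3 more positive and 37 more negative). Without 4 weeks smoke arrays 2 and 3 and 12 weeks smoke array 3 the count was 11, without single arrays of 8 weeks it ran from 11 to 78, and after normexp it was 0 (limma, 127 with an unadjusted p under 0.05). Against 6 weeks alone 11 differed (4.03% of 273, 1 more positive and 10 more negative), those with the lowest p being miR-146b-5p (-0.55 ± 0.11), miR-31-5p (-0.55 ± 0.13), miR-674-5p (-0.41 ± 0.10) and miR-1895 (0.62 ± 0.16). miR-350-3p (-0.46 ± 0.13) and miR-152-3p (-0.42 ± 0.12) were among the others. Without smoke array 4 the count was 28, and without any other single array but control array 4 it was 1 to 3. miR-146b-5p passed in each of these 8 fits, but not with the scaling by all probes (adjusted p 0.26) or with normexp (0.94). Against 12 weeks alone 7 differed (2.56%, 1 more positive and 6 more negative). miR-135b-5p rose by 4.98 at 12 weeks, more than at 8 weeks (gap -0.88 ± 0.22, adjusted p 0.021), and miR-449a-5p of multiciliated cells was at 1.52 ± 0.20 log2 at 12 weeks and 0.39 ± 0.18 at 8 weeks (gap -1.13 ± 0.27, 0.021). Without control array 2 the count was 3 and without smoke array 3 it was 4. The gap of miR-135b-5p did not pass without control array 2 or smoke array 1 or 3 (adjusted p up to 0.055), nor that of miR-449a-5p without control array 2 (0.052). Neither gap passed with the scaling by all probes, with normexp, with no detection filter or with array brightness as a covariate. That of miR-449a-5p was also lost with quantile scaling, and that of miR-135b-5p with the scanner's sum and in the series table. With the scaling by all probes the split was 4 and 1 against 6 weeks, and 7 and 0 against 12 weeks.

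The arrays behind these gaps were then compared within each treatment, a comparison added after seeing the data. Control arrays of 8 weeks differed from the mean of the other controls for 8 miRNAs (2.93%), and smoke arrays of 8 weeks from the other smoke arrays for 4 (1.47%). These counts depend on single arrays. The first was 0 without control array 3 (limma, 20 with an unadjusted p under 0.05), 3 without control array 1 and 5 without control array 2. The second was 0 without smoke array 1, 2 or 3 (limma, 69, 24 and 22 unadjusted), 1 without any 1 control array and 42 without smoke array 4. After normexp both were 0 (limma, 33 and 5 unadjusted). With the scaling by all probes 5 of these 8 and none of these 4 passed. Without scaling the median over 273 miRNAs was 0.68 log2 higher in the 8 weeks controls than in the other controls, and -0.31 in the 8 weeks smoke arrays against the other smoke arrays. miR-146b-5p, miR-31-3p, miR-429-3p and miR-674-5p were lower in the 8 weeks smoke arrays, by 0.32 for miR-146b-5p (mean 0.30 log2 at 8 weeks and 0.55, 0.58 and 0.75 at 4, 6 and 12 weeks; adjusted p 0.0067). miR-31-5p was instead higher in the 8 weeks controls (-3.04 log2 against -3.44, -3.43 and -3.35; 0.37 higher, 0.0095), with the 8 weeks smoke arrays at -3.05. miR-335-5p (0.32), miR-148a-3p (0.25) and miR-669n (0.61) were higher in the 8 weeks controls as well, and miR-1895 (-0.38) and miR-139-3p (-0.41) lower. These shifts share the 4 control arrays with the smoke difference at 8 weeks, so the signs of the 2 comparisons are not independent.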

How the data were processed

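The deposited spot intensity had its background subtracted and its spatial trend removed, by Feature Extraction 10.7.3.1 per the file headers, with no normalization between arrays. Outlier spots (327 to 440 per array here) and control spots were left out, spots of a probe were averaged, and a probe was detected where 50% of its spots were above background. Each array was divided by the 75th percentile of the 385 probes that all 31 arrays detected, floored at the median over arrays of the lowest detected signal, and put on a log2 scale. The brightest probe stood for each miRNA. The authors' deposited series table holds log2 values, whose normalization and centring no source used here gives (column medians 2.71 to 2.85). Its correlation with the scaled values is 0.981 to 0.989 per array, and it served as an alternative.

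Differences were estimated with limma 3.58.1 in R 4.3.3, with 8 group means and 23 residual degrees of freedom, and adjusted by Benjamini and Hochberg over 273 miRNAs. The code was tested on simulated data. Named miRNAs are the largest called changes, called list members or up to 4 of the list, and up to 8 per contrast between durations. The alternatives were other scalings, no scaling, normexp (offset 50, on the median signal because no mean signal is in the files), other probe summaries, the series table, other filters, a floor 4 times higher, slide as a block, each array left out, and array brightness as a covariate. Members and lists were chosen with earlier results of these data known. Sequences and positions are from RefSeq, GRCm38.p6; a host gene is one whose span holds the precursor on either strand. An "at least" fold sets the brighter group's mean against the dimmer group's, in which each array counts at its lowest detected signal or at the miRNA's own, whichever is higher. Replicate numbers equal slides at 8 weeks. Same-numbered smoke and control arrays had deviations correlated at 0.541, 0.339, -0.029 and 0.021 over 207 miRNAs.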

Additional observations from a re-analysis of the deposited data

Results flagged for a closer look

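Over 168 groups of 4 arrays checked, 7 had 1 array far from the rest by Dixon's test, and chance gives about 1 in 20. They are control array 2 for miR-1897-5p (-6.27 log2, the others -6.05 to -6.03), miR-133b-3p (-1.60, the others -1.75 to -1.74) and miR-208b-3p (-5.21, the others -5.33 to -5.31), and control array 4 for miR-194-5p (-4.09, the others -3.98 to -3.97) and let-7a-5p (3.96, the others 4.04 to 4.06). Control array 1 stood apart for miR-204-5p (-5.89, the others -6.21 to -6.16), and smoke array 1 for miR-669n (-6.71, where the others lie at the floor of -6.74). The control values lie so close together that these gaps are small.

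The smoke difference at 8 weeks minus the mean of 4, 6 and 12 weeks passed the limma test of the difference for miR-146b-5p (-0.52 log2), miR-31-5p (-0.56), miR-335-5p (-0.63), miR-1895 (0.64), miR-31-3p (-0.32), miR-429-3p (-0.34), miR-22-5p (-0.39) and miR-181c-5p (-0.31), the 8 with the lowest p. Against 6 weeks they were miR-146b-5p (-0.55), miR-31-5p (-0.55), miR-674-5p (-0.41), miR-1895 (0.62), miR-429-3p (-0.36), miR-350-3p (-0.46), miR-181c-5p (-0.36) and miR-152-3p (-0.42). Against 12 weeks the 7 were miR-146b-5p (-0.57), miR-31-3p (-0.45), miR-1895 (0.79), miR-449a-5p (-1.13), miR-335-5p (-0.64), miR-135b-5p (-0.88) and miR-31-5p (-0.52).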

How the results depend on the processing

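The 30 calls at 8 weeks (10 higher, 20 lower) became 203 with no scaling (1 and 202), 3 with normexp (3 and 0), 60 by the per-miRNA sum of the scanner (10 and 50), 52 in the deposited series table (12 and 40), 18 with a floor 4 times higher, 3 with the replicate block when only the 8 weeks arrays are fitted (miR-135b-5p, miR-21-5p and miR-135a-1-3p), 48 without 4 weeks smoke arrays 2 and 3 and 12 weeks smoke array 3, and 121 with array brightness as a covariate (22 and 99). Leaving out 1 array of 8 weeks gave 22 to 41. The slide is the replicate number, and with the replicate block in the fit of all arrays 28 passed. It ended the calls of miR-204-5p and miR-27b-3p and no other of the 30. The check on deviations does not settle whether the numbers pair the samples. Same-numbered arrays correlated at 0.541 and 0.339 for numbers 1 and 2, and at -0.029 and 0.021 for 3 and 4. Differently numbered arrays ran from -0.524 to 0.418.

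For the gap from the mean of the other durations, 15 calls (2 more positive, 13 more negative) became 9 with all-probe scaling (7 and 2), 9 under quantile scaling (4 and 5), 198 unscaled, 0 with normexp, 7 with no detection filter, 9 with the higher floor, 25 without those 3 arrays and 134 with brightness, and 6 to 31 without single arrays. For 6 weeks, 11 calls (1 and 10) became 5 (4 and 1), 2 (1 and 1), 105 and 0 under these scalings and normexp (2 with an unadjusted p under 0.05), 3 with the scanner's sum, 6 in the series table, 1 with no filter, 3 detected on all arrays, 22 without those 3 arrays, 54 with brightness and 1 to 28 without single arrays. For 12 weeks, 7 calls (1 and 6) became 197 with no scaling, 0 with normexp (3 unadjusted), 11 with the sum, 12 in the table (6 and 6), 3 with no filter, 15 without those 3 arrays (7 and 8) and 3 to 8 without single arrays; with all-probe and quantile scaling 7 passed each (7 and 0, 3 and 4).

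Turned with no scaling, where the median of all is -0.86 log2: miR-1895 (-0.34), miR-1897-5p (-0.29), miR-139-3p (-0.25), miR-1892 (-0.070) and miR-132-3p (-0.038) among the calls, and miR-146a-5p (-0.74), miR-200c-3p (-0.71), miR-192-5p (-0.81), miR-194-5p (-0.80), miR-451 (-0.70), miR-92a-3p (-0.76) and let-7f-5p (-0.76), not called before. miR-1895 also turned in the gaps from the other durations (-0.26), 6 weeks (-0.19) and 12 weeks (-0.35), where the medians of all were -0.99, -0.91 and -1.09. Turned with normexp, where the median smoke difference is 0.22 and none of these passed: miR-669n (0.28), miR-467d-3p (0.26), miR-466b-3p (0.39), miR-186-3p (0.36), miR-204-5p (0.39), miR-669a_v15.0 (0.42), miR-542-5p (0.10), miR-30b-3p (0.27) and miR-181d-5p (0.024). The gaps of miR-31-3p (0.73, and 0.45 against 12 weeks) and miR-22-5p (0.073) turned too, as did miR-674-5p against 6 weeks (0.33) and miR-135b-5p against 12 weeks (0.051), and none passed. With normexp the median gap of all was 0.50 from the other durations, 0.18 against 6 weeks and 0.33 against 12 weeks. With brightness miR-29c-3p turned to 0.30. The causes were not tested. With 4 arrays a group, and 10 of the 20 falls under -4 log2, small differences of dim miRNAs are the least certain.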
